A study of Mus musculus with 6 samples.

Results

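The baseline transcriptome of regulatory T cells (Treg) was described from the wild type libraries of a study on inositol polyphosphates and effector Treg. Treg were sorted by flow cytometry from spleens of wild type C57BL/6 mice and were not stimulated. Total RNA was taken up in Trizol, and 500 ng went into each Lexogen QuantSeq library, a method that counts 1 tag near the 3′ end of each copied transcript. There were 3 wild type libraries, labelled as biological replicates 1, 2 and 3; the labels tie none to a named animal, and no source used here gives the sorting gate. The other group of the study, IPMK cKO, was not used. The deposited counts covered 23282 gene entries, of which Rn45s, the precursor of ribosomal RNA, was taken out. An entry was kept when it reached at least 10 CPM, counts scaled to 1000000 outside Rn45s, in every library, which held for 7039 of 23281 entries, or 30.2%. The members were thus chosen by their levels, which are given as descriptions, with no test, and the spread is that between 3 libraries.

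Treg are CD4 T cells that restrain other immune cells. Their identity rests on the transcription factor FOXP3, they bind interleukin 2 through the high-affinity receptor chain CD25 (Il2ra), and they carry the inhibitory receptor CTLA4. Splenic Treg include resting cells that recirculate through lymphoid organs and effector cells that have responded to antigen.

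Values are in CPM and in the order of wild type replicates 1, 2 and 3. Coordinates are of the build mm10 (GRCm38), with gene spans from GENCODE M21. All 5 Treg marker genes passed the minimum in every library. Ikzf2 (chr1:69531214-69687245), which encodes the transcription factor Helios, stood at 1188, 2263 and 1641, the highest of the 5 in each library. Cd4 (chr6:124864692-124888221) stood at 616, 517 and 617, and Il2ra (chr2:11642807-11693193) at 553, 508 and 345. Ctla4 (chr1:60887000-60915832) stood at 133, 201 and 182. Foxp3 (chrX:7573644-7595245) was the lowest and the least even of the 5, at 14.6, 112 and 40.6, from 86, 590 and 279 counts. Its coefficient of variation (CV, the SD over the mean of the 3 libraries) was 0.903, and among the 4129 members with a mean of at least 50 CPM only 1 had a larger one. Replicate 1, the lowest for Foxp3, was also the lowest for Ctla4 and Ikzf2 but not for Il2ra or Cd4.

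The 8 general T cell markers were also all members, with a summed level of 4272, 3998 and 3969.6. Cd3e, a signalling chain of the T cell receptor complex, was the most even of them at 409, 427 and 415. Cd8a had no count in any library, while Cd8b1, the other CD8 chain, stood just over the minimum at 11.02, 16.8 and 13.8. Pax5, which defines B cells, was at 0, and the 10 B cell markers summed to 32.9, 21.9 and 39.8, none of them a member. Markers of macrophages and monocytes summed to 1.02, 10.8 and 4.95 over 11 genes, those of neutrophils to 0, 3.78 and 0.146 over 8, and those of NK cells to 11.2, 3.78 and 9.03 over 6. Dendritic cell markers summed to 10.7, 2.84 and 21.6 over 7. Plasma cell markers summed to 0, 0.189 and 7.28 over 5, and platelet markers to 0, 4.54 and 3.64 over 5. Itgax, Flt3, Sdc1 and Pf4 stood at 0, and Sox13, the 1 measured gamma delta T cell marker, had no count. No count was found for 3 of 10 B cell, 4 of 7 dendritic cell, 3 of 5 plasma cell and 4 of 5 platelet markers. The other markers of these lists had a count in at least 1 library. For these low sums, a gene with no count is bounded at 3 counts, which is 0.509, 0.567 and 0.437 CPM in the 3 libraries. This covers counting error only, since no source used here mentions molecular identifiers.

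Replicate 2 had the highest sums for antigen-presentation and red cell genes. The 5 MHC class II genes summed to 7.80, 81.3 and 29.4, most of it Cd74 at 7.80, 67.1 and 26.4, and the 7 erythroid genes to 0.170, 77.9 and 4.95, most of it Hba-a1 at 0.170, 63.0 and 4.52. Of the stroma and endothelium list, Pecam1 was the 1 member, at 50.9, 91.4 and 98.2, while Cdh5 and Kdr, which define endothelium, were at or near 0. The part of these cells in any result was not tested. In sorted bulk samples, fewer cells of a type and less RNA per cell cannot be told apart.

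**Figure D1:**
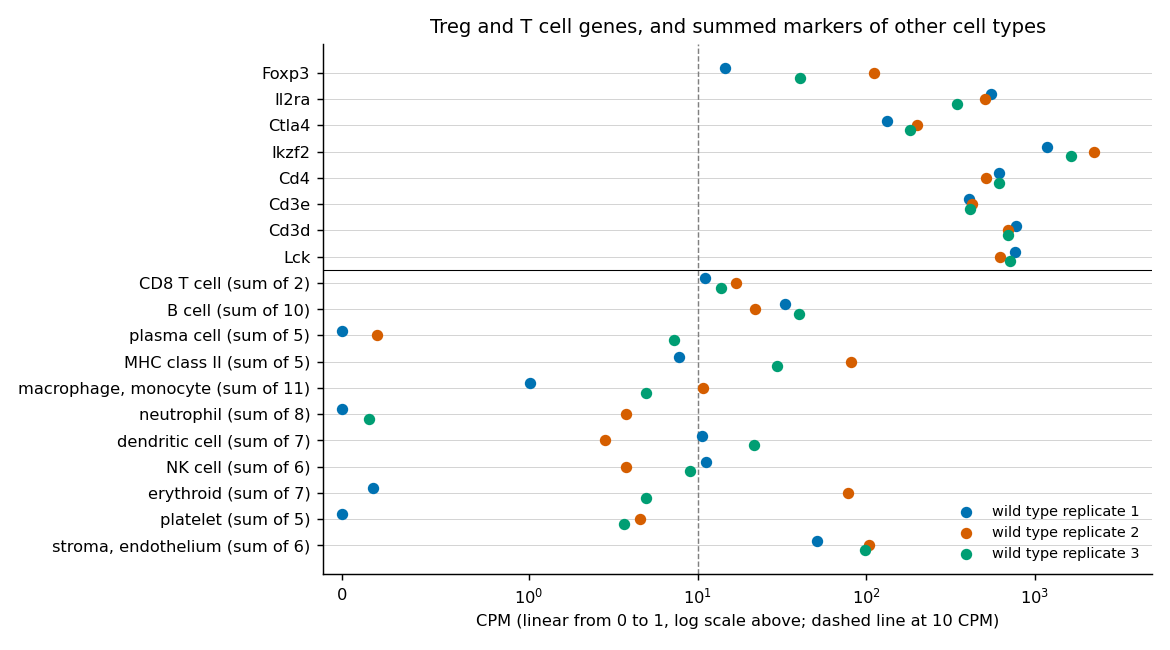
Levels of 5 Treg genes and 3 T cell genes (above the line) and summed levels of marker lists of other cell types (below the line), in CPM, with 1 point per wild type library. The Treg and T cell genes lie between 14.6 and 2263 CPM, and Foxp3 spans the widest range of them; the lists of other cell types reach at most 104 CPM.

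The libraries held 7464546, 7743187 and 8246993 counts, of which Rn45s took 16.7% to 31.7%, most in replicate 2 and least in replicate 3. The remaining 5896638, 5287300 and 6865772 counts set the scale, so that 10 CPM corresponded to 59.0, 52.9 and 68.7 counts. A count was present for 10353, 12525 and 11291 entries. Replicate 2 thus had the fewest counts outside Rn45s and the most entries with a count. The members held 96.2% ± 0.507 (SD, n = 3) of the counts outside Rn45s.

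Few genes carried much of the RNA. Each transcript gives tags at its 3′ end, so levels and ranks between genes are in tags and not per length. The 10 most abundant entries of each library took 7.86%, 8.65% and 7.54% of the counts outside Rn45s, and the 100 most abundant took 22.5%, 22.6% and 22.2%. It took 710, 707 and 719 entries to reach 50% of the counts. These numbers differed little between libraries.

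**Figure D2:**
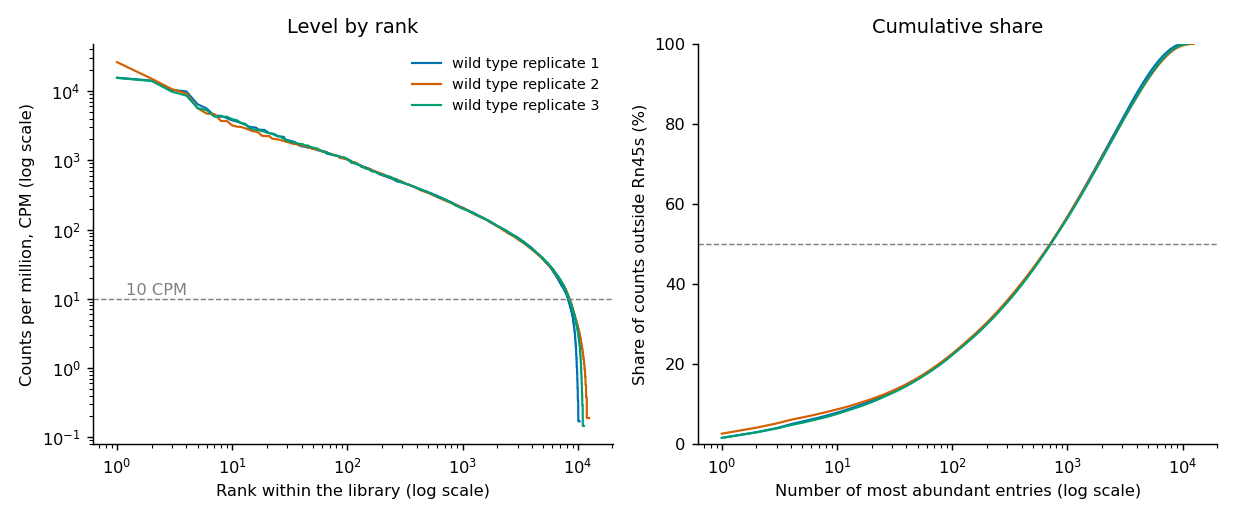
Left, CPM of each entry against its rank in its own library, both on log scales, with a dashed line at 10 CPM; right, the cumulative share of counts outside Rn45s in percent against the number of most abundant entries (log scale). The 3 curves, 1 per wild type library, nearly overlie each other and cross 50% at 707 to 719 entries, and they part below 10 CPM, where replicate 1 ends first.

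Malat1, a long noncoding RNA of the nucleus, had the highest mean, at 15589, 26099 and 13947. It was the 1 entry of the top 4 with a wide spread, since replicate 2 stood at 1.87 times the level of replicate 3. Actb, the cytoplasmic actin, stood at 14129.7, 15032 and 15448. Tmsb4x, which encodes the actin-binding thymosin beta 4, stood at 10414, 9184 and 9766. B2m, the shared light chain of MHC class I, stood at 9860.2, 10637 and 8584, and H2-K1, a class I heavy chain, at 5579, 5663 and 5295. These 4 protein-coding genes differed by at most 1.24-fold between the highest and the lowest library.

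Further down the first ranks came genes with varied roles. Shisa5, in no list used here, stood at 4040.3, 4716 and 4253. Gimap4, a GTPase of lymphocytes, ranked 13 at 3448, 3185 and 2930.3. Smc4, a subunit of condensin, which compacts chromosomes, ranked 19 at 2449, 3019.5 and 2473. Nfkbia, the inhibitor that holds NF-κB in the cytoplasm, ranked 28 at 1953, 1834 and 2212, and Ptprc, the phosphatase CD45, ranked 35 at 1469, 2018 and 1675. Ikzf2 ranked 36 in tags, above every other transcription factor in the list of 61 used here. Bcl11b, a factor needed for T cell identity, followed at rank 42 with 1482, 1612 and 1624, and Ets1 at rank 78 with 1148, 1230.3 and 1117.

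Some ranks are uncertain because entries share reads. Wdr89 (4386, 3691 and 4252) and Rplp2-ps1 (4386, 3687 and 4248) had almost the same counts. RefSeq places the pseudogene Rplp2-ps1 (chr12:75630918-75631749) within the span of Wdr89 (chr12:75630594-75669537), so their tags cannot be told apart. Ppib (158, 115 and 104) and Snx22 (158, 115 and 104) overlap in the same way. Among entries with at least 100 counts in all, 20 groups had identical counts in each library. Of these groups 8 held entries on different chromosomes and 1 an entry with no annotated position, and several paired genes of different names such as Ipmk and Mrm1, so identical counts do not show by themselves that reads were shared. In 8 of the groups on 1 chromosome the entries were members. Among the genes of glycolysis, Gapdh stood at only 35.4, 19.1 and 34.5 and Tpi1 at 18.7, 24.2 and 25.3, while Pkm, the pyruvate kinase, stood at 416, 321 and 418. Eno1 had no count, and the near-identical entries listed as Eno1b had means of 55.9 and 56.4. Gapdh, Tpi1 and Eno1b were singled out after their values were seen, and genes with near-identical copies elsewhere are uncertain because the counting rule is not given.

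By mean level, 2910 members lay from 10 to under 50 CPM, 3100 from 50 to under 200, 925 from 200 to under 1000, and 104 at 1000 or more. Their shares of the counts outside Rn45s were 9.05% ± 0.0997, 30.3% ± 0.396, 34.1% ± 0.0238 and 22.7% ± 0.144 (SD, n = 3). The 104 members of the highest class thus held more of the counts than the 2910 of the lowest. Of the 104, 32 were in the ribosomal protein list and 37 were in none of the lists. The 37 included Laptm5 (1586, 1580.0 and 1634), a lysosomal membrane protein, and Jak1 (1375, 1435 and 1282), the kinase of many cytokine receptors. They also included Rn4.5s (2769, 1913 and 3357) and pseudogene entries named after ribosomal proteins. These were Rplp2-ps1, Rpl37rt (2183, 1676 and 2431) and Rpl34-ps1 (1196, 1330 and 1785), which the 32 do not count.

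Across 7005 members with a GENCODE transcript, mean CPM and transcript length had a Spearman correlation of 0.0823, given as a description across genes, which are not independent. After division by transcript length, an alternative chosen after the data were seen, 57 of the 100 highest members remained among the highest 100.

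The members just inside and just outside the minimum show how it works. Psme3, an activator of the proteasome, passed with 10.01, 53.7 and 51.9, and Mtrf1l with 10.01, 59.0 and 24.9. Ctnnbip1 failed with 63.4, 24.97 and 9.90, and Mafk with 46.0, 30.5 and 9.90. Several entries that failed had higher means than many members. Rexo1 stood at 9.33, 91.2 and 77.9, Zfp809 at 1.53, 70.9 and 79.1 and Akap10 at 89.9, 2.08 and 31.6. In all, 1471 entries had a mean of at least 10 CPM and failed in at least 1 library. Of entries failing in 1 library only, 679 failed in replicate 1, 285 in replicate 2 and 349 in replicate 3.

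Entries with no count at all in 1 library were most common in replicate 1. Of the 7718 entries at 10 CPM or more in the other libraries, 152 (1.97%) had no count in replicate 1. The matching numbers were 8 of 7324 (0.109%) for replicate 2 and 20 of 7388 (0.271%) for replicate 3. Il10, a suppressive cytokine, was 1 of the 152, at 0, 10.6 and 22.4. Tigit, an inhibitory receptor, stood at 0, 6.998 and 0, Tgfb1, a suppressive cytokine, at 0, 5.11 and 0, and Gzmb, a granule protease, at 4.24, 3.03 and 4.22. All 4 of these genes failed the minimum in at least 1 library.

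The Treg lineage list had 24 of 28 measured genes among the members and a summed share of 0.773% ± 0.0411 (SD, n = 3). Besides the markers above, its receptors led. Nrp1, neuropilin 1, a surface marker of thymus-derived Treg, stood at 930.0, 687 and 689. Il2rb, the beta chain of the interleukin 2 receptor, stood at 756, 655 and 717, and Izumo1r, the folate receptor 4, at 748, 497 and 674. The costimulatory receptor Icos stood at 415, 636 and 492. Tnfrsf18, which encodes GITR, was more even at 335, 330.4 and 379, as was Tnfrsf4, or OX40, at 314, 329 and 264.8.

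Ikzf4, which encodes the Helios relative Eos, was the most even of this list, with a CV of 0.0466 at 311, 284 and 292. Lrrc32, which tethers latent TGF-β at the surface, stood at 249.1, 186 and 230.1. Of the enzymes that make extracellular adenosine, Nt5e (CD73) stood at 165, 144 and 126 and Entpd1 (CD39) at 28.5, 14.2 and 27.7. Itgae, the CD103 integrin chain, was highest in replicate 1 at 54.9, 17.0 and 13.0. The median CV of the list was 0.185, beside 0.248 over all 7039 members. Spread was smaller at higher levels, and the median level of the list's members was 188 CPM. The median CV was 0.230 for members from 50 to under 200 CPM and 0.152 from 200 to under 1000.

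Genes of effector and of resting Treg were present together. The effector list had 24 of 26 genes among the members, with a share of 0.505% ± 0.0214, and the resting list 14 of 15, with a share of 0.480% ± 0.0401. Of the effector genes, S100a4 stood at 599, 545 and 731, and Maf, a transcription factor, at 621, 719 and 410.0, highest in replicate 2. Klrg1, a marker of terminally differentiated effector cells, stood at 106, 70.2 and 172, highest in replicate 3. Prdm1, which encodes BLIMP1, was even at 76.1, 78.9 and 65.8, and Irf4 was low at 42.9, 49.7 and 37.7. Havcr2, which encodes TIM3, had no count.

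Of the resting genes, Bcl2, the survival factor, stood at 675, 763 and 752, and Klf2, which sustains recirculation, at 587, 488 and 619.9. Ccr7, the chemokine receptor that guides entry into lymph nodes, stood at 155, 189.9 and 241, highest in replicate 3. Il7r, the interleukin 7 receptor, stood at 241, 330.4 and 379. Tcf7, which encodes TCF1, stood at 63.4, 86.4 and 52.3, and its relative Lef1 at 270.5, 298 and 343.

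The T cell receptor list had 30 of 32 measured genes among the members and a summed level of 10909.6, 10521 and 10731, with an SD of 194. Cd3d stood at 773, 695 and 692 and the kinase Lck at 760.3, 625 and 716. Cd27, a costimulatory receptor, was less even at 800.5, 438 and 589.

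Among the receptors for cytokines, 20 of 22 were members. The common gamma chain Il2rg led at 815, 711 and 774. Il1r2, a decoy receptor for interleukin 1, had the largest CV, 0.826, at 128, 62.2 and 15.4, while Tgfbr1 had the smallest at 56.8, 60.3 and 59.1. Il1rl1, the interleukin 33 receptor ST2 of tissue-type effector Treg, stood at 63.1, 83.2 and 60.4. Among the receptors for chemokines and sphingosine 1-phosphate, 12 of 18 were members. S1pr1, which lets lymphocytes leave lymphoid organs, led at 352, 234 and 381, and Cxcr4 and Cxcr3 stood at 126, 112 and 61.9 and at 70.5, 129 and 91.0. Their list had a median CV of 0.303, above the 0.248 of all members.

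The MHC class I pathway had 17 of 26 genes among the members and a share of 2.29% ± 0.0701. Beyond B2m and the heavy chains, Tapbp, the loading factor tapasin, stood at 780.1, 856 and 856. The immunoproteasome subunit Psmb8 stood at 814, 555 and 766, and its partner Psmb9, with the largest CV of the list, at 234, 102 and 255. Among interferon-stimulated genes, 46 of 59 were members, led by Ly6e at 1821, 1679.7 and 1943 and Samhd1, a nucleotide hydrolase, at 896, 1075 and 837. Irf7 was low and even at 30.02, 28.9 and 28.3, and Xaf1 was uneven at 28.7, 18.3 and 81.7. Their share was 1.12% ± 0.0182.

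All 49 genes of the actin cytoskeleton list and all 8 measured GIMAP genes were members. The actin list took 4.79% ± 0.128 of the counts, the largest share after the ribosomal proteins. Its most even member was Capza2, a capping protein, at 62.1, 64.9 and 61.0. Its least even member was Dock8, an exchange factor for CDC42, at 73.3, 275 and 211, where replicate 1 lay well below the others. The GIMAP genes took 0.578% ± 0.0335. Of 37 immediate early genes, 29 were members, with a share of 0.879% ± 0.00573; Nr4a1, a reporter gene of receptor signalling, was highest in replicate 1 at 184, 65.1 and 70.5, while Jun was even at 74.6, 73.4 and 66.9.

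Of 45 cell cycle genes, 27 were members. Ccnd2, a G1 cyclin, led at 1288, 1497 and 1486, and Cdkn1b, the inhibitor p27, stood at 634, 422 and 489.7. Of the survival genes, Mcl1 stood at 481, 785 and 639, and the pro-apoptotic Bcl2l11, or BIM, at 98.4, 112 and 91.9. The granule list had 12 of 18 genes among the members, led by the proteoglycan Srgn at 1360.1, 1024 and 1032. Xist, the RNA that coats the inactive X chromosome, stood at 876, 1046 and 906, and 4 genes of the Y chromosome (Ddx3y, Eif2s3y, Kdm5d and Uty) had no count in any library.

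Ribosomal protein genes, with 83 of 87 measured among the members, took 7.97% ± 0.983, the largest share of any list. Their summed level was 87036, 68536 and 83536, and 70 of the 83 were lowest in replicate 2, whereas 34.9% of all members were. Rps14 stood at 3767, 2498 and 3918 and Rps20, by contrast, at 2583, 2629 and 2804. Oxidative phosphorylation, with 76 of 77 genes among the members, had its sum lowest in the same library, at 10689.5, 8483 and 10549, with 47 of the 76 lowest there. Ribosomal protein transcripts are short, and 72 of the 83 lay in the shortest of 5 bins of about equal size of members by transcript length. Of the other 1329 members of that bin, 48.4% were lowest in replicate 2. The splicing list, with 60 of 62 genes among the members, had an even sum of 20649, 20817 and 20297.

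Translation factors, with 43 of 45 genes among the members, took 2.13% ± 0.110, led after the growth-related protein Tpt1 (3260.2, 3061 and 3433) by the elongation factors Eef1a1 (2355, 1963 and 2319) and Eef2 (2178, 1999.9 and 2406). Eif1a, an initiation factor, was their least even member at 12.7, 58.8 and 28.1. Of 39 heat shock and chaperone genes 35 were members, led by Hsp90ab1 at 2971, 2889 and 2607, and their sum of 10732, 9160.1 and 9376 was highest in replicate 1. The proteasome list had 42 of 46 genes among the members, and its subunits ranged from Psmd3, described with the most even genes, to Psma5 at 24.8, 17.97 and 63.2. Iron and redox genes, with 20 of 23 among the members, had a median CV of 0.256. Fth1, the ferritin heavy chain, stood at 321, 251 and 459, and Txnip, the inhibitor of thioredoxin, at 464, 428 and 659.5, both highest in replicate 3. Glycolysis had 22 of 26 genes among the members and a share of 0.215% ± 0.00885. This share carries the uncertainty given above for genes with near-identical copies, such as Gapdh. Slc2a1, the glucose transporter GLUT1, was the least even member of the glycolysis list at 29.5, 11.7 and 29.7.

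**Figure D3:**
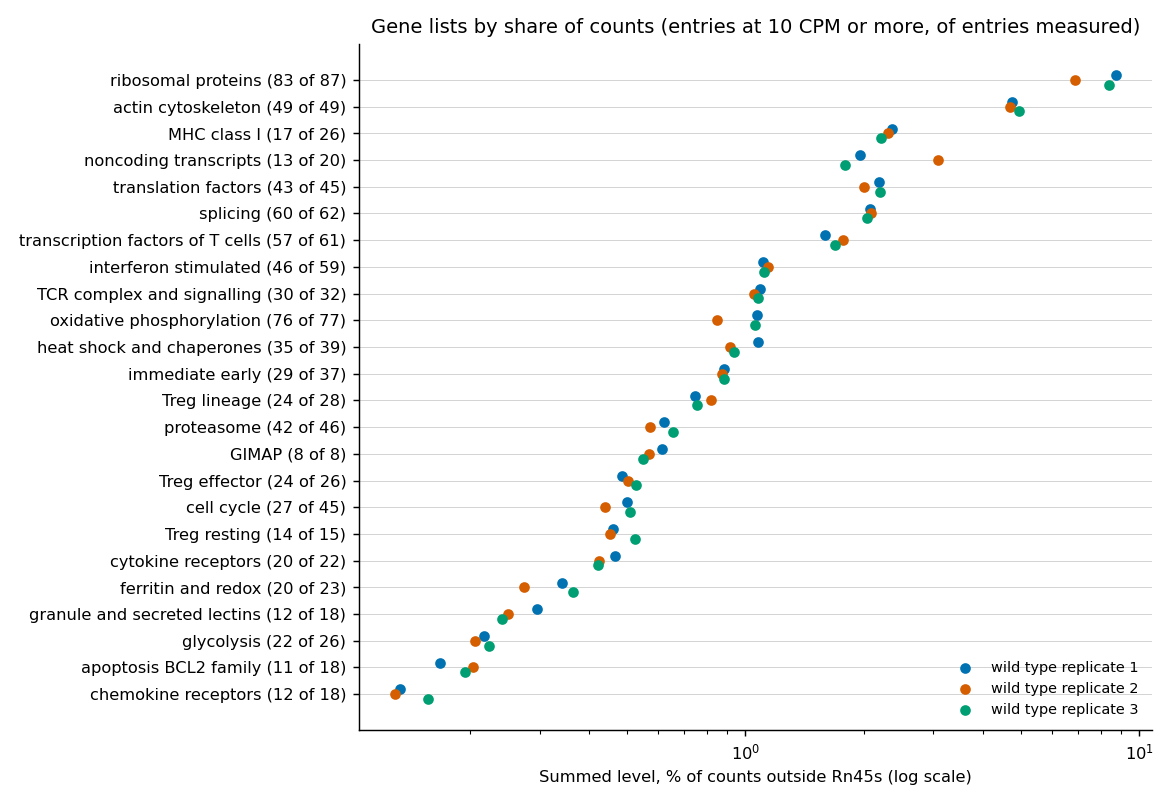
Summed level of 24 gene lists as a percentage of counts outside Rn45s (log scale), with 1 point per wild type library and, beside each name, the members among the genes measured. Ribosomal proteins and the actin cytoskeleton lead with 7.97% and 4.79%, and replicate 2 is lowest for ribosomal proteins and oxidative phosphorylation and highest for noncoding transcripts, which Malat1 leads.

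When all entries were grouped by the letters that open the symbol, 293 groups held at least 10 entries. In 4 groups every entry was a member: the splicing factors Prpf (13 entries) and Sf (10), the deadenylase subunits Cnot (10) and the complex I subunits Ndufb (10). In 56 groups none was. They included 1125 olfactory receptor entries (Olfr), 342 vomeronasal receptor entries (Vmn), and the keratins (Krt).

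Spread between libraries was smaller at higher levels. The median CV was 0.324 in the class from 10 to under 50 CPM, 0.230 from 50 to under 200, 0.152 from 200 to under 1000, and 0.134 at 1000 or more. The CV that counting noise implies at each member's mean count had a median of 0.0521 over all members. It is a value in theory and not, like the other CVs here, one taken from 3 values. By this measure, 214 members (3.04%) lay at or under their own counting noise. The common biological coefficient of variation estimated by edgeR was 0.318. Because every library had to reach 10 CPM, the rule bounds the spread of members whose mean lies close to 10 CPM.

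Between the highest and the lowest library, 2830 members (40.2%) differed by less than 1.5-fold and 1949 (27.7%) by 2-fold or more. In the highest class 1 of 104 members reached 2-fold, Gm4070 at 804, 1582 and 745. The largest CV at a mean of 50 CPM or more belonged to Lars2, a mitochondrial leucyl-tRNA synthetase, at 199, 60.9 and 33.8. Other uneven members were Pqbp1 at 19.8, 137 and 53.9 and Ndst1, an enzyme of heparan sulfate synthesis, at 132, 47.7 and 31.3. The smallest CV, 0.00359, belonged to Twistnb, a subunit of RNA polymerase I, at 152, 152 and 151. Creb1 (302, 296 and 298), a transcription factor, Psmd3 (154, 155 and 153), a proteasome subunit, and Stim1 (51.4, 52.2 and 52.7), the calcium sensor of the endoplasmic reticulum, were also among the 15 most even. Each of these CVs rests on 3 values taken from a ranking of 4129 members.

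**Figure D4:**
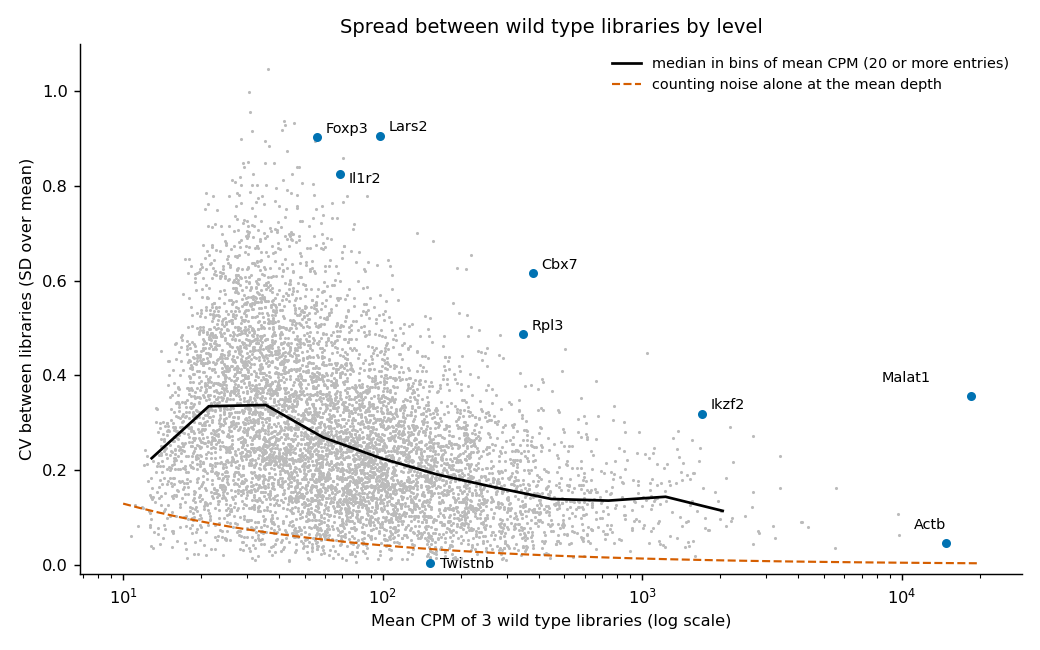
CV between the 3 wild type libraries against mean CPM (log scale) for 7039 members, each a grey point; the black line is the median in bins of mean CPM, the dashed line the CV that counting noise alone gives, and blue points mark genes named in the text. Foxp3, Lars2 and Il1r2 lie above 0.8, far over the median line, and Twistnb lies under the dashed line.

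The libraries ranked the members in similar order, with Spearman correlations across members of 0.852 for replicates 1 and 2, 0.851 for replicates 1 and 3, and 0.890 for replicates 2 and 3. These are descriptions across genes. Of the 100 most abundant entries of each library, 74 were shared by all 3. Replicate 1 stood 2-fold or more above both others for 193 members and below both for 276. The same numbers were 89 and 147 for replicate 2, and 111 and 135 for replicate 3.

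The deviation of a library from the others varied with transcript length. In replicate 2 the median log2 ratio to the mean of the other libraries was -0.25 in the shortest of the 5 length bins and 0.15 in the longest. In replicate 1 it was 0.11 and -0.11, and in replicate 3 it was 0.06 and -0.11. Replicate 2 also had the largest share of Rn45s and the highest Malat1. The part of RNA quality in these shifts was not tested.

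Some neighbouring genes deviated together. Over runs of 5 members in order along each chromosome, in each library, the median log2 ratio to the other libraries had a median size of 0.19, and 69 of 20766 runs reached 1 or more. These runs overlap and were ranked after the values were seen, so they are described with no test. The largest, at -1.67 in replicate 2, ran from Sun2 to Rpl3 on chromosome 15. Cbx6 (chr15:79823896-79834688), a Polycomb protein, stood at 369, 84.5 and 202. Apobec3 (chr15:79891659-79915906), a cytidine deaminase that restricts retroviruses, stood at 307, 65.8 and 206. Cbx7 (chr15:79915807-79971119), another Polycomb protein, stood at 617, 151 and 371, and Rpl3 (chr15:80077791-80091868), a ribosomal protein, at 513, 175 and 354. Apobec3 lies on the plus strand and Cbx7 on the minus strand, and their spans overlap at the 3′ ends. The strand setting of the counting is not given, so Apobec3 and Cbx7 may share tags.

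Further along the chromosome, Mief1 (chr15:80234018-80253371), which acts in mitochondrial fission, stood at 49.9, 13.4 and 30.1, and Rps19bp1 (chr15:80260615-80264315) at 51.2, 15.7 and 28.3. In all 6 genes replicate 1 was highest, replicate 3 between and replicate 2 lowest. The order was not shared by all genes between or beside them. Atf4 (chr15:80255184-80257541), a stress-response factor that lies between Mief1 and Rps19bp1, was highest in replicate 2 at 219, 282 and 215. Gtpbp1, beside Sun2, was highest in replicate 3 at 142, 124 and 257. Sun2, a protein of the nuclear envelope on the near side of Cbx6, had the same order as the 6 genes over a narrower range, 443, 328 and 377. Rpl3 had the largest CV of all ribosomal protein members, 0.486.

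With only the largest run of each chromosome taken, the next in size were on chromosomes 14 and 10. Both also held entries that may share tags. On chromosome 14, Tmem254a (124, 30.8 and 58.4) and Tmem254c had identical counts, and Tmem254b (139, 32.3 and 60.0) nearly so, which lifted a run in replicate 1 to 1.55. On chromosome 10, a run at -1.55 in replicate 1 held the overlapping genes Grin3b (16.1, 31.8 and 69.6) and Tmem259 (16.3, 33.5 and 76.2), and Abca7 (14.6, 54.5 and 39.5). The same run held Wdr18 (50.5, 16.8 and 11.2), which was highest in replicate 1, and Cnn2 (466, 495 and 583), which was nearly level. In these 2 runs, as at Apobec3 and Cbx7, some tags may count more than once.

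**Figure D5:**
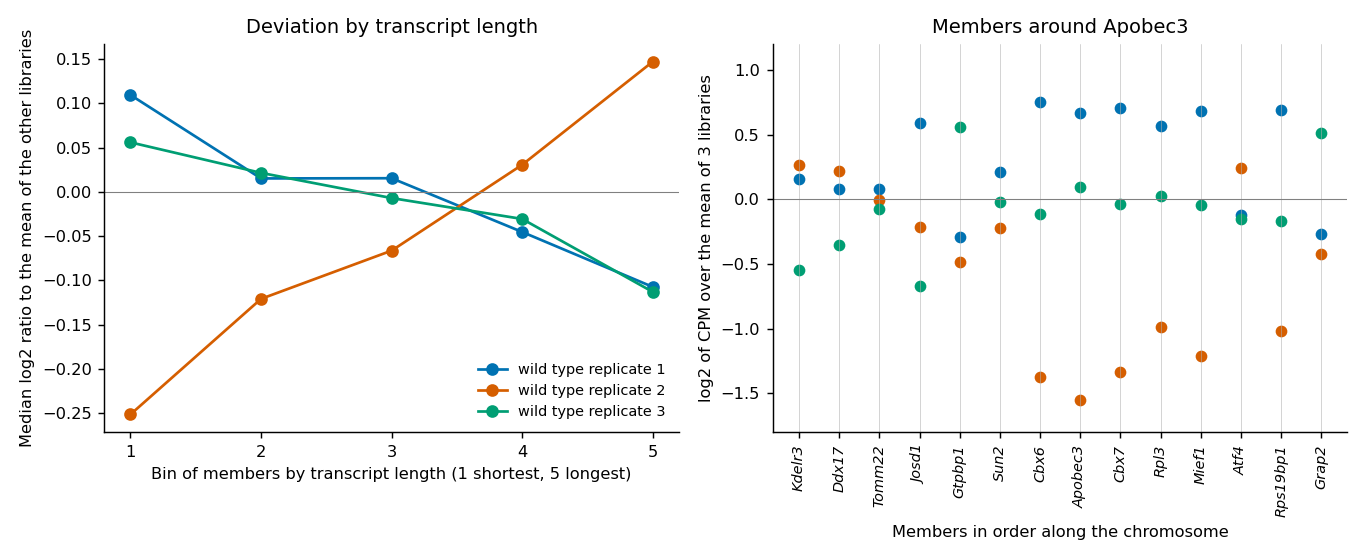
Left, median log2 ratio of each wild type library to the mean of the other libraries, in 5 bins of members by transcript length; right, log2 of CPM over the mean of 3 libraries for members around Apobec3, in order along chromosome 15, with the same colours. Replicate 2 climbs from -0.25 to 0.15 with length, and it lies far below the other libraries for Cbx6, Apobec3, Cbx7, Rpl3, Mief1 and Rps19bp1 but not for Atf4.

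Members and the other entries differed in properties that the rule did not use, given here as descriptions with no test. Of members with an annotation, 97.7% were protein-coding, beside 86.2% of the other entries. Their median transcript length was 3161 bases, beside 2405, and their median number of exons was 9, beside 5. The X chromosome had 221 members among 963 entries (22.9%) and chromosome 7 had 477 of 2095 (22.8%), beside 30.2% of all entries. The Y chromosome had 0 of 47, and chromosome 19 had the largest share, 272 of 731 (37.2%).

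Promoters were read from RefSeq (GRCm38.p6), as 250 bases before to 50 bases after each annotated start, and were matched for 5418 of 7037 member symbols. Where a gene had several starts, a motif at any of them was counted and the highest CpG ratio was used. Genes with more annotated starts thus had more chances of a match and of a high ratio. The number of starts per gene is not given here for members and other entries. The sequence sets were chosen after the levels were seen, and a match is no evidence of binding. The CpG ratio, observed over that implied by the C and G content, had a median of 0.828 in members and 0.403 in the other entries. The letters CCGGAAG, searched on both strands of the 250 bases before the start, stood in 19.6% of member promoters, 5.75% of the others and 10.1% of all. The letters TATAAA, on the gene's strand from 40 to 19 bases before the start, stood in 1.02%, 3.79% and 2.92%.

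Lists of T cell genes varied in this ratio. The median was 0.289 in 21 T cell receptor promoters, 0.215 in 8 GIMAP promoters and 0.205 in 9 chemokine receptor promoters, beside 0.972 in 51 splicing promoters. It was 0.441 in 17 promoters of the Treg lineage list, 0.398 in 19 of the effector Treg list and 0.689 in 16 of the cytokine receptor list. In 11 promoters of the resting Treg list it was 0.821, close to the 0.828 of all members. None of the 21 T cell receptor promoters held CCGGAAG. The 150 bases before the start with the highest CpG ratio are shown for 3 of the highest members of the T cell receptor list and 3 of the splicing list, to set the lists side by side, with each CG in capitals.
Ptprc (chr1:138175306-138175455, minus strand): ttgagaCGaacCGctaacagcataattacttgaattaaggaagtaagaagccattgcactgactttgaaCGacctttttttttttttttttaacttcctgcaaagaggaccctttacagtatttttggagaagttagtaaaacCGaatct
Cd3d (chr9:44981636-44981785, plus strand): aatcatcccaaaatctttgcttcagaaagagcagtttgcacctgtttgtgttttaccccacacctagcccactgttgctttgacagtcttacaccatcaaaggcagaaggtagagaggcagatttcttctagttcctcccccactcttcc
Lck (chr4:129573642-129573791, minus strand): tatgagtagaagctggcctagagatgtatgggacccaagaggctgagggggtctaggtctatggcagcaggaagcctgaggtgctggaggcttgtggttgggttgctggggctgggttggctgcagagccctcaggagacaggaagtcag
Srrm2 (chr17:23803075-23803224, plus strand): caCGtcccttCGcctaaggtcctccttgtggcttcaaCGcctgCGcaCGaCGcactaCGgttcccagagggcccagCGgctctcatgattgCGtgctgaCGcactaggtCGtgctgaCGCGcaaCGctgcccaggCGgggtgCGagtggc
Rbm25 (chr12:83635560-83635709, plus strand): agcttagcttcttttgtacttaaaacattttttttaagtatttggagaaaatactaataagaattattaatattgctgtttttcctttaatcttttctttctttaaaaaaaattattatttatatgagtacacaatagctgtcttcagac
Ddx5 (chr11:106788495-106788644, minus strand): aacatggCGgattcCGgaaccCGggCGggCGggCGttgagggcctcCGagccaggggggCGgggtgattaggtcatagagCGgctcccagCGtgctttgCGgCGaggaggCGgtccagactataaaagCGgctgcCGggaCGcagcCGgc
Cd3d and Lck have no CG in this stretch and Ptprc has 4, while Srrm2 has 16 and Ddx5 has 17. Rbm25, a splicing gene at 1318, 1335 and 1192, has none. The starts used for Ptprc, Ddx5, Rbm25 and Srrm2 lie 403, 691, 4474 and 12693 bases inside the spans annotated for these genes. Their stretches may thus not be those before the outermost start.

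A second set concerns the start itself. Many ribosomal protein messages are known to begin with a C and a run of pyrimidines, the 5′ terminal oligopyrimidine tract, which couples their translation to growth signals. The search was for a C followed by at least 5 bases that are each C or T. It covered the gene's strand, within 5 bases before to 11 bases after the annotated start. Such a run stood at 27 of 62 ribosomal protein promoters (43.5%) and at 11.9% of all. Translation factors had it at 5 of 33 promoters (15.2%), close to the 13.1% of all members. The 30 bases around the first start listed (15 on each side) are shown for the highest matched genes of translation and for others of the highest class, with such a run in capitals.
Rps9 (chr7:3704026-3704055, plus strand): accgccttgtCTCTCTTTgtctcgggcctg
Rps24 (chr14:24490663-24490692, plus strand): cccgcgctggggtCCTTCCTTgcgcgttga
Eef1a1 (chr9:78481710-78481739, minus strand): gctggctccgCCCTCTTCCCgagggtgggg
Rpl22 (chr4:152325711-152325740, plus strand): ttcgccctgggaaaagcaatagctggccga
Rpl4 (chr9:64173372-64173401, plus strand): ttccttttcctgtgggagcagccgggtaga
Tpt1 (chr14:75845241-75845270, plus strand): gtcaccgctgacgacagttccgggggagcc
B2m (chr2:122147672-122147701, plus strand): cctggctggctctcatttcagtggctgcta
H2-K1 (chr17:34000333-34000362, minus strand): ttgggtggcgcgatcaccaagaaccaatca
Tmsb4x (chrX:167209204-167209233, minus strand): cggactacgagtgacatcacctcatttgca
The run was found in this window in Rps9, Rps24 and the elongation factor Eef1a1. It was not found there in the other 3 genes of translation or in B2m, H2-K1 and Tmsb4x. Rpl4 does hold such a run in the bases shown, but mostly before the window. Malat1, Shisa5 and Wdr89, examined but not shown, had no run in the window either, though Shisa5 has one mostly before it. No match says only that the letters are not in this window, which depends on where the annotation puts the start.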

How the data were processed

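The authors deposited whole-number counts per gene entry for each library, per the file headers and the values. The tools Bowtie2 and edgeR and the genome builds hg19 and mm10 appear without a stated role per the submitters' processing notes. No source used here states the counting program, annotation, strand setting or filters. The 3 wild type libraries, with 7464546 to 8246993 counts, were used, and IPMK cKO was left out. After removal of Rn45s, counts were scaled to CPM, and entries at 10 CPM or more in all 3 libraries were kept. SDs and CVs are over 3 libraries. No test was run, because the rule uses the levels and no groups are compared. The dispersion (edgeR 4.0.16, R 4.3.3, intercept only) is a description.

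Entries with the same symbol were kept apart. GENCODE M21 matched 98.4% of entries and 99.5% of members, in part through RefSeq synonyms, and gave spans, exons and the longest protein-coding transcript. Lengths of 3′ untranslated regions were not used here.

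The members and lists were chosen with earlier results of these data known. Named genes were the cell type markers and Treg lists, the 30 highest means, in each list up to 6 highest means and the largest and smallest CV, the 15 largest and smallest CVs at 50 CPM or more, entries nearest the minimum, the 15 highest that failed, those farthest apart in each library, and list genes with no count. Some genes that this rule takes are left out of the text. Genes named outside that rule were Laptm5, Jak1, Rpl34-ps1, Ppib, Snx22, Gapdh, Tpi1, Eno1b, Ipmk, Mrm1 and Gm4070. So were those around Apobec3 and in the runs along chromosomes. All were chosen after their values were seen. The spread calculation was tested on simulated counts. Alternatives were TMM (edgeR) and DESeq2 1.42.0 scaling, other minimums, summed symbols, other measures of spread, leaving out each library, and, added after the data were seen, levels per kb of transcript.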

Additional observations from a re-analysis of the deposited data

How the results depend on the processing

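The number of members was 7024 with TMM scaling, 7039 with DESeq2 size factors, 6525 with Rn45s in the library size, 7038 with symbols summed, 8011 at 5 CPM, 5532 at 20 CPM and 8510 with 10 CPM in the mean. With no minimum it was 13387. Leaving out 1 library gave 7324 to 7718. The share of counts outside Rn45s in the members was 95.1% when Rn45s entered the library size used for the minimum. It was 97.7% at 5 CPM, 92.4% at 20 CPM, 98.6% with 10 CPM in the mean and 100% with no minimum. With 1 library left out it was 97.0% to 97.5%. The class of 1000 CPM or more had 64 members with Rn45s in the library size. The median CV was 0.468 with no minimum and 0.190 to 0.215 with 1 library left out. With 1 library left out, each CV rests on fewer values and the members differ. Such a median cannot be set directly against that of 3 libraries. The median ratio of the highest to the lowest library was 1.62. The mean rank correlation of 0.865 became 0.896 with the Pearson correlation of log2(CPM + 1) and 0.894 over every entry with a count. Per kb of transcript, 57 of the 100 highest members stayed. In 24 gene lists and 1 list of sex-linked genes, all 50 summed levels under other scaling stayed within 1 SD of the value reported. Depth limits entries near 10 CPM to about 52.9 to 68.7 counts. No paired analysis was possible because only wild type libraries were used and no groups were compared.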
